A study of Homo sapiens with 6 samples.

Results

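The S100 family genes expressed in SW480 cells were followed across 3 hairpin groups. S100 proteins are small calcium sensors of vertebrates. Most of them form dimers in which paired EF-hand loops bind calcium, which opens a surface that grips partner proteins such as annexins or myosin heavy chain. Some members are also released from cells, where they act on receptors such as RAGE, and several are used as markers of migrating or invasive tumor cells. The family was represented by 10 genes, chosen by symbol: S100A2, S100A3, S100A4, S100A6, S100A10, S100A11, S100A13, S100A14, S100A16 and S100P. Their Ensembl identifiers were matched through GENCODE release 29 (GRCh38), which gave 10 of the 19655 genes in the deposited tables, and all 10 passed the expression limit (a mean of at least 0.5 FPKM over the libraries) that left 12756 genes for testing. FPKM counts sequenced fragments relative to gene length and to the total of each library. Of the genes, 9 lie together on chromosome 1 (band 1q21), and S100P lies on chromosome 4.

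RNA-Seq was performed on SW480, an established human colorectal cancer cell line, in 3 groups of 2 libraries. Cells of the control group carried a nontargeting hairpin (shNT). The other groups carried the lentiviral hairpin shPCYT2-1 or shPCYT2-2 against PCYT2, the rate-limiting enzyme of the Kennedy pathway, which makes phosphatidylethanolamine. Each group is a single hairpin in a single cell line, and nothing in the labels says that the libraries of a group came from separate cultures, so the p-values measure the spread between these libraries only. Read counts could not be had from the deposited values, so precision rests on having 2 libraries in a group.

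PCYT2 itself checked the labels. It was at 11.6 and 13.8 FPKM with shNT, at 7.11 and 7.36 FPKM with shPCYT2-1, and at 6.71 and 6.18 FPKM with shPCYT2-2, so both knockdown groups lay below both control libraries. By limma, the log2 fold change was -0.73 for shPCYT2-1 (SE 0.10, adjusted p = 0.00205) and -0.88 for shPCYT2-2 (SE 0.10, adjusted p = 0.00261). The difference in PCYT2 between the hairpins, -0.15 (SE 0.10), did not pass the test (limma adjusted p = 0.309). Among 13 alternative settings it passed only with the trend of GC content and length removed (limma adjusted p = 0.03). All fold changes are on the log2(FPKM + 1) scale, which understates the change of low genes, and both hairpins were compared with the same shNT libraries.

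The labelled epithelial origin was checked with 12 markers of colorectal epithelium, of which 8 reached 1 FPKM or more. EPCAM lay between 257.9 and 312.3 FPKM over the libraries, CDH1 between 14.7 and 17.3 FPKM, and VIL1 between 38.8 and 44.7 FPKM, while KRT20 was at or near 0. The summed level of these markers, led by the keratin KRT8, was 8213.1 and 8771.6 FPKM with shNT, 8434.0 and 8527.2 FPKM with shPCYT2-1, and 6261.0 and 6557.2 FPKM with shPCYT2-2. The lower sum with shPCYT2-2 lay in the keratins KRT8 (2734.2 and 2874.3 FPKM, against 3601.6 and 3860.7 FPKM with shNT), KRT18 and KRT19. EPCAM overlapped with shNT there, CDH1 and VIL1 were above both shNT libraries, and the intestinal factor CDX2 was instead lower with shPCYT2-1 (9.94 ± 0.0936 FPKM, against 16.2 ± 0.968 FPKM with shNT, SD, n = 2). The part of these shifts in the S100 values was not tested. Markers of other cell types were low. The 8 fibroblast markers summed to between 5.19 and 7.32 FPKM, with COL3A1 and FAP lacking an entry in the values used here and so taken as 0. Of the immune markers, CD68 carried most of a sum between 19.1 and 25.7 FPKM, and PTPRC and AIF1 likewise lacked an entry. The 4 endothelial markers summed to between 0.513 and 0.769 FPKM. KRT5, a keratin of squamous epithelium, lay between 810.1 and 1026.4 FPKM, although KRT14, KRT1 and TP63 of the same list were at or near 0. In these bulk libraries, fewer cells of a type and less RNA per cell cannot be told apart.

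S100 transcripts were among the abundant messages of SW480. Summed over the 10 genes they came to 4437.0 and 4327.7 FPKM with shNT, 4185.9 and 4341.8 FPKM with shPCYT2-1, and 3877.5 and 4313.6 FPKM with shPCYT2-2. The shPCYT2-1 libraries overlapped with those of both other groups, whereas both shPCYT2-2 libraries lay below both of shNT. The sum made up 1.01% to 1.15% of all FPKM in a library. With shNT, S100A6 (calcyclin) led at a mean of 1259.7 FPKM, followed by S100A4 (metastasin) at 874.1 FPKM, S100A11 (calgizzarin) at 826.0 FPKM, S100A10 (p11, the annexin A2 ligand, whose EF hands no longer bind calcium) at 422.1 FPKM and S100A16 at 309.6 FPKM. Below them came S100A3, a cysteine-rich member known from the hair cuticle, at 247.4 FPKM, the epithelial member S100A14 at 169.5 FPKM, S100A13 at 108.6 FPKM, S100P at 106.2 FPKM and S100A2 at 59.1 FPKM. S100A13 and S100P overlapped in the shNT libraries, and every other pair of neighbors in this order was separate. Among all 19655 genes, S100A6 ranked between 32 and 56 over the 6 libraries, S100A4 between 65 and 74, and S100A2 between 982 and 1377.

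**Figure D1:**
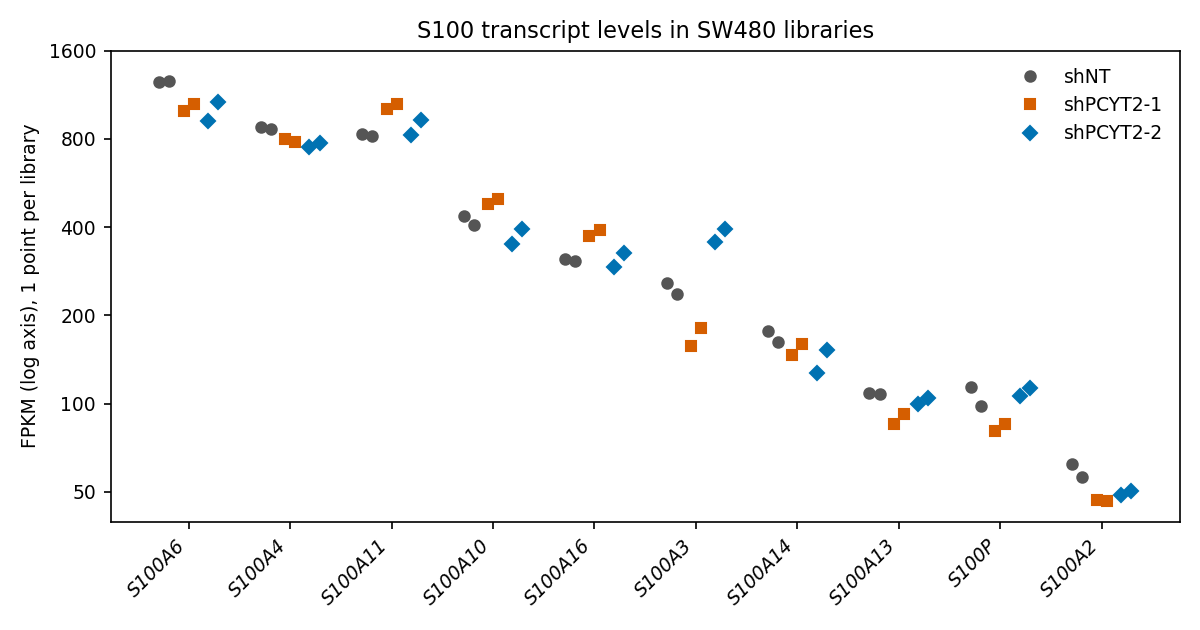
FPKM (log axis) of the 10 S100 genes, ordered by their mean with shNT, with 1 point for each of the 6 libraries in the groups shNT, shPCYT2-1 and shPCYT2-2. S100A6 lies highest with shNT at a mean of 1259.7 FPKM and S100A2 lowest at 59.1 FPKM, and S100A3 shows the widest gap between the hairpins.

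The order changed with the hairpin. With shPCYT2-1, S100A11 (mean 1036.4 FPKM) and S100A6 (mean 1024.5 FPKM) overlapped at the top, and S100A3 (169.5 FPKM) overlapped with S100A14 (153.2 FPKM). With shPCYT2-2, S100A6 (997.7 FPKM) and S100A11 (877.3 FPKM) overlapped, and S100A3 at 376.4 FPKM stood beside S100A10 at 372.9 FPKM, again with overlapping libraries. The rank of S100A3 among all genes ranged from 130 to 327 over the libraries.

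The members did not move together. With shPCYT2-1, S100A10, S100A11 and S100A16 rose and S100A2, S100A3, S100A6, S100A13 and S100P fell, so 8 of 10 passed an adjusted p under 0.05 in limma, against 26.7% of all tested genes (16.5% higher and 10.1% lower). The median log2 fold change of the members was -0.22, beside 0.07 over all tested genes. This split depended on scaling, since with median-ratio size factors 0 members were called higher and 5 lower, and the calls over all genes went from 2109 higher and 1291 lower to 1394 higher and 1792 lower. With shPCYT2-2, S100A3 rose and S100A2, S100A4 and S100A6 fell, 4 of 10, against 12.4% of all tested genes (7.69% higher and 4.74% lower). The median of the members was -0.13, beside 0.04 over all tested genes. Scaling moved the calls over all genes from 981 higher and 604 lower to 759 higher and 904 lower in this comparison. With no filter on low values 0 members were called with shPCYT2-2, and 124 of all genes.

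A direct comparison of the hairpins called 6 of 10 members, against 27.1% of all tested genes (12.9% higher and 14.2% lower). S100A3, S100A13 and S100P were higher with shPCYT2-2 than with shPCYT2-1, and S100A10, S100A11 and S100A16 were lower. The median difference of the members was -0.05, beside -0.02 over all tested genes. With median-ratio scaling 3 members were called, 2 higher and 1 lower, and the calls over all genes went from 1648 higher and 1815 lower to 1892 higher and 1661 lower. When the 4 knockdown libraries were pooled against shNT, limma called 0 of the 10 members, against 0.00784% of all tested genes (1 gene), and 3 members had an unadjusted p under 0.05. PCYT2 itself was not called in that fit either (-0.80, SE 0.11, limma adjusted p = 0.115), so the 0 does not show that the members were unchanged. The mean of the hairpins taken from the fit with 3 groups called 5 members, 1 higher and 4 lower, against 16.8% of all tested genes (10.9% higher and 5.85% lower).

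**Figure D2:**
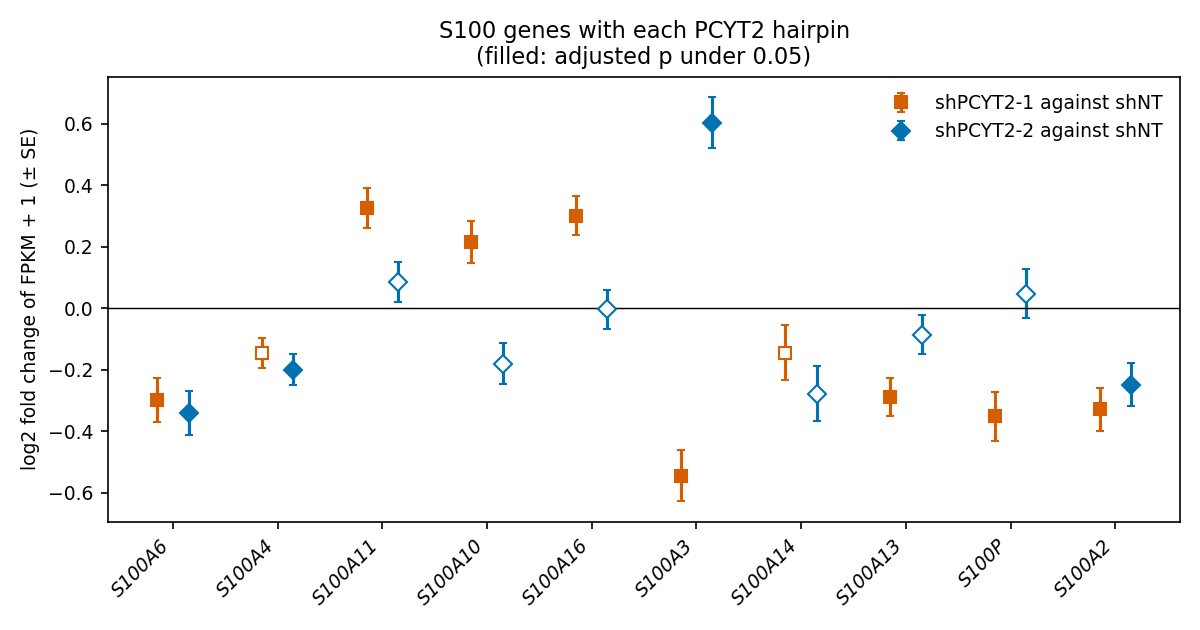
Log2 fold change of FPKM + 1 against shNT for each S100 gene with shPCYT2-1 (squares) and shPCYT2-2 (diamonds), with bars for the standard error from limma and filled symbols for an adjusted p under 0.05. S100A3 lies at -0.55 with shPCYT2-1 and at 0.60 with shPCYT2-2, on opposite sides of the shNT level.

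S100A3 differed most between the hairpins. It was at 257.9 and 236.9 FPKM with shNT, at 157.3 and 181.8 FPKM with shPCYT2-1, and at 357.5 and 395.3 FPKM with shPCYT2-2. The 3 groups did not overlap, with the shPCYT2-1 libraries lowest and the shPCYT2-2 libraries highest. S100A3 fell by 0.55 on the log2 scale with shPCYT2-1 (SE 0.083, limma adjusted p = 0.00304) and rose by 0.60 with shPCYT2-2 (SE 0.083, limma adjusted p = 0.00536), a difference of 1.15 between the hairpins (SE 0.083, limma adjusted p = 7.07e-05). Its difference ranked 86 by size among the 12756 tested genes and 1 among the 583 genes with a mean of at least 100 FPKM, a limit chosen after the values were seen. Of the 13 alternatives tried, 6 leave out 1 library, so that its group has 1 library left, which is assumed to vary like the groups that still have 2. The fall and the difference were called under all 13, and the rise lost its call only with no filter on low values (limma adjusted p = 0.0678).

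S100A3 (ENSG00000188015, GRCh38 chr1:153547329-153549372, minus strand) lies wholly within the annotated span of S100A4 (ENSG00000196154, chr1:153543613-153550136, minus strand), over 2044 bases. The annotated transcripts of the pair share no stretch of 50 bases, so reads of that length from their exons can be told apart. S100A4, which binds the heavy chain of non-muscle myosin and is known for its part in cell motility, was at 880.2 and 868.0 FPKM with shNT, at 798.8 and 782.2 FPKM with shPCYT2-1, and at 748.9 and 772.9 FPKM with shPCYT2-2. The knockdown libraries were thus all under the shNT range. S100A4 fell by 0.20 with shPCYT2-2 (SE 0.049, limma adjusted p = 0.0332), a call made under 4 of 13 alternatives and lost without shNT replicate 2 or any knockdown library. The call was also lost with no filter on low values, median-ratio scaling, no variance trend or GC content and length removed. The S100A4 value with shPCYT2-1 was -0.14 (SE 0.049, limma adjusted p = 0.0579, and 0.0466 with the replicate number as a block). Between shPCYT2-2 and shPCYT2-1 it differed by -0.06 (SE 0.049, limma adjusted p = 0.438). The ratio of S100A3 to S100A4 was 0.293 and 0.273 with shNT, 0.197 and 0.232 with shPCYT2-1, and 0.477 and 0.511 with shPCYT2-2, without overlap between the groups.

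S100A3 differed most between the hairpins, S100A4, whose annotated span encloses S100A3, differed by -0.06, and S100A10 differed in the opposite direction. The promoter windows of these genes are therefore shown. Each runs from 250 bases before to 50 bases after a transcript start in RefSeq (GRCh38.p14), is written 5′ to 3′ on the gene's strand, and has motif matches in capitals. The windows are chr1:153549209-153549508 for S100A3, chr1:153545757-153546056 for S100A4 and chr1:151993810-151994109 for S100A10, all on the minus strand. The S100A4 window lies beyond the 3′ end of S100A3 (chr1:153547329-153549372), so a transcript from that start does not cover S100A3.
S100A3: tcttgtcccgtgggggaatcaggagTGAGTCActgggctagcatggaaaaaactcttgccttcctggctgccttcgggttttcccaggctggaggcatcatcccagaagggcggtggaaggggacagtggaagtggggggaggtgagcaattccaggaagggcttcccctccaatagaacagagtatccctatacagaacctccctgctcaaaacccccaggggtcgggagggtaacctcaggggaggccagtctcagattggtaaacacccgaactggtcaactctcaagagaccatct
S100A4: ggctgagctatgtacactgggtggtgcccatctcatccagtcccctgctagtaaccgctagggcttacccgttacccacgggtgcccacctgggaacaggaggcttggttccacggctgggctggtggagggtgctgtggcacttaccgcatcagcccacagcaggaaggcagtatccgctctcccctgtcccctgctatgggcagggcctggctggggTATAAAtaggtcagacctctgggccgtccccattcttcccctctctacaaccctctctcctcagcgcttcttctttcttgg
S100A10: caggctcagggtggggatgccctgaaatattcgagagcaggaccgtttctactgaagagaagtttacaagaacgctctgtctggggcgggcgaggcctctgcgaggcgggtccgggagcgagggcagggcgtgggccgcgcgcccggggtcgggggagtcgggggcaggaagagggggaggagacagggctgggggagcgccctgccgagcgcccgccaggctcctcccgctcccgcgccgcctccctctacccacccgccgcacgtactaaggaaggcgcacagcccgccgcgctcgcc

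Motifs were searched on both strands of the 14 RefSeq windows of the 10 members: TATAAA for a TATA box, TGANTCA for AP-1 and GGAATG for TEAD factors. Over all 35116 promoter windows of the same length, 11.5% held TATAAA, 7.71% held TGANTCA and 14% held GGAATG. The S100A3 window held TGAGTCA at -225 to -219 from the start, and a window of S100A2 held TGACTCA at -52 to -46. TATAAA stood at -31 to -26 in S100A4, at -28 to -23 in S100P and at -29 to -24 in a window of S100A13. S100A16 held GGAATG at 17 to 22 in one window and at -247 to -242 in another. The S100A10 window held none of the motifs.

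S100A6 and S100A2 were lower in all 4 knockdown libraries than in both shNT libraries. S100A6, which binds the calcyclin-binding protein CACYBP, was at 1254.5 and 1265.0 FPKM with shNT, at 999.4 and 1049.5 FPKM with shPCYT2-1, and at 923.5 and 1071.9 FPKM with shPCYT2-2. It fell by 0.30 with shPCYT2-1 (SE 0.071, limma adjusted p = 0.0162) and by 0.34 with shPCYT2-2 (SE 0.071, limma adjusted p = 0.0193). Each S100A6 call was made under 8 of 13 alternatives. Both were lost without shNT replicate 2, and each without replicate 1 of its own hairpin (adjusted p up to 0.105 for shPCYT2-1 and 0.12 for shPCYT2-2). S100A2, a member found mainly in the nucleus of epithelial cells, was at 62.2 and 56.1 FPKM with shNT, at 46.9 and 46.7 FPKM with shPCYT2-1, and at 48.8 and 50.3 FPKM with shPCYT2-2. It fell by 0.33 with shPCYT2-1 (SE 0.069, limma adjusted p = 0.0102) and by 0.25 with shPCYT2-2 (SE 0.069, limma adjusted p = 0.0471). Without shPCYT2-1 replicate 1 the first of these S100A2 calls was lost. The second was made under 5 of 13 alternatives, being lost without any single library other than shNT replicate 2. That second call was also lost with no filter on low values, with no variance trend and with GC content and length removed. The hairpins differed by -0.04 for S100A6 (limma adjusted p = 0.698, SE 0.071) and by 0.08 for S100A2 (limma adjusted p = 0.421, SE 0.069), neither past the threshold.

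S100A10, S100A11 and S100A16 were higher in both shPCYT2-1 libraries than in all shNT and shPCYT2-2 libraries. S100A10 was at 436.2 and 408.1 FPKM with shNT, at 481.0 and 498.4 FPKM with shPCYT2-1, and at 351.2 and 394.7 FPKM with shPCYT2-2. S100A11, which binds annexin A1, was at 834.2 and 817.8 FPKM with shNT, at 1016.4 and 1056.3 FPKM with shPCYT2-1, and at 822.7 and 931.8 FPKM with shPCYT2-2. For S100A11 and S100A16, the shPCYT2-2 libraries overlapped with those of shNT, while for S100A10 they lay below them. S100A16, a widely expressed member, was at 311.6 and 307.5 FPKM with shNT, at 373.3 and 390.0 FPKM with shPCYT2-1, and at 291.6 and 326.8 FPKM with shPCYT2-2.

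With shPCYT2-1, the log2 fold change was 0.21 for S100A10 (SE 0.068, limma adjusted p = 0.0447), 0.33 for S100A11 (SE 0.065, limma adjusted p = 0.00827) and 0.30 for S100A16 (SE 0.064, limma adjusted p = 0.011). All of these calls were lost with median-ratio scaling, where the values were 0.13 for S100A10, 0.24 for S100A11 and 0.22 for S100A16. The S100A10 call was also lost without shNT replicate 2 and without either shPCYT2-1 library, and that of S100A16 without shPCYT2-1 replicate 2. With shPCYT2-2, the values were -0.18 for S100A10 (limma adjusted p = 0.108), 0.08 for S100A11 (limma adjusted p = 0.409) and -0.0041 for S100A16 (limma adjusted p = 0.975). Compared directly, the hairpins differed by -0.39 for S100A10 (SE 0.068, limma adjusted p = 0.00349), which held under all 13 alternatives. The same difference was -0.24 for S100A11 (SE 0.065, limma adjusted p = 0.0231; called under 6 of 13 alternatives) and -0.31 for S100A16 (SE 0.064, limma adjusted p = 0.00885; called under 10 of 13). Without shPCYT2-2 replicate 1, the differences of S100A11 and S100A16 were -0.15 (adjusted p = 0.138) and -0.22 (adjusted p = 0.062).

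S100A13 and S100P fell with shPCYT2-1. S100A13, which takes part in the release of FGF1 from cells, was at 109.0 and 108.1 FPKM with shNT, at 85.3 and 92.3 FPKM with shPCYT2-1, and at 99.7 and 104.8 FPKM with shPCYT2-2. S100P, an ezrin-binding member found in many carcinomas, was at 114.4 and 98.1 FPKM with shNT, at 80.6 and 85.0 FPKM with shPCYT2-1, and at 106.0 and 112.9 FPKM with shPCYT2-2. For both genes the shPCYT2-1 libraries were the lowest, and for S100P the shPCYT2-2 libraries lay within the range of shNT. S100A13 fell by 0.29 with shPCYT2-1 (SE 0.063, limma adjusted p = 0.0117) and was 0.20 higher with shPCYT2-2 than with shPCYT2-1 (SE 0.063, limma adjusted p = 0.0412). S100P fell by 0.35 with shPCYT2-1 (SE 0.080, limma adjusted p = 0.014) and was 0.40 higher with shPCYT2-2 than with shPCYT2-1 (SE 0.080, limma adjusted p = 0.00705). Neither moved past the threshold with shPCYT2-2 against shNT (limma adjusted p = 0.38 for S100A13, with a value of -0.09, and 0.728 for S100P, with a value of 0.05). The falls of S100A13 and S100P were not called without shPCYT2-1 replicate 1 (limma adjusted p up to 0.127 and 0.0809 over the alternatives), and the S100P difference was not called without shPCYT2-2 replicate 2 (limma adjusted p = 0.0643). The S100A13 difference was called under 6 of 13 alternatives and lost without any of the 4 knockdown libraries, and 25.7% of the 50-base stretches of its transcripts also occur in AL162258.1 or S100A1, so its value is uncertain.

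S100A14, which is found mainly in epithelia, was at 177.0 and 162.0 FPKM with shNT, at 146.8 and 159.6 FPKM with shPCYT2-1, and at 127.7 and 152.4 FPKM with shPCYT2-2. Both knockdown groups lay below the shNT libraries but those of shPCYT2-2 were wide apart (SD 17.5 FPKM, n = 2). Its log2 fold change was -0.15 with shPCYT2-1 (SE 0.089, limma adjusted p = 0.251) and -0.28 with shPCYT2-2 (SE 0.089, limma adjusted p = 0.0709), so no comparison called it. Over the 13 alternatives the value ran from -0.23 to -0.08 with shPCYT2-1 and from -0.41 to -0.15 with shPCYT2-2, and 0 of them called it.

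Other S100 genes were scarce in these cells. Of 11 genes of the family outside the 10, 8 had no entry in the values used here, among them S100A8, S100A12 and S100B. S100A1 lay between 0.41 and 0.929 FPKM, S100A5 between 0.6 and 1.42 FPKM and S100A9 between 0 and 0.357 FPKM. S100A1 and S100A5 were tested, and limma called 0 of these 2 in any comparison, with 0 at an unadjusted p under 0.05. Of 12 fused-type S100 and cornified envelope genes of the same chromosome band, such as FLG and IVL, 8 were listed and 0 passed the expression limit.

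Known binding partners and receptors of S100 proteins were described from a list of 24 genes, of which 19 were tested. With shPCYT2-1, 5 rose and 1 fell (median 0.18), where 16.5% of all tested genes rose and 10.1% fell. With shPCYT2-2, 6 rose and 1 fell (median 0.05), beside 7.69% and 4.74% of all tested genes. Between the hairpins 4 were higher and 5 lower, beside 12.9% and 14.2%. ANXA2, the annexin that holds S100A10 in a complex at the plasma membrane, was at 512.8 and 481.7 FPKM with shNT, at 619.8 and 636.0 FPKM with shPCYT2-1, and at 479.4 and 512.8 FPKM with shPCYT2-2. As with S100A10, the shPCYT2-1 libraries were the highest. ANXA2 rose by 0.34 with shPCYT2-1 (SE 0.058, limma adjusted p = 0.00468) and was lower by 0.34 with shPCYT2-2 than with shPCYT2-1 (difference -0.34, limma adjusted p = 0.0034). TRPV6, a calcium channel brought to the membrane by S100A10 and annexin A2, was at 0.727 and 0.882 FPKM with shNT, at 1.67 and 2.04 FPKM with shPCYT2-1, and at 0.803 and 0.568 FPKM with shPCYT2-2. It rose by 0.66 with shPCYT2-1 (SE 0.124, limma adjusted p = 0.00655), from a low level. The ANXA2 rise was not called with median-ratio scaling or with GC content and length removed (limma adjusted p up to 0.0806), and that of TRPV6 was called under all 13 alternatives. AHNAK, a large scaffold of the same complex, was called only between the hairpins among these comparisons (0.26, SE 0.071, limma adjusted p = 0.0235).

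**Figure D3:**
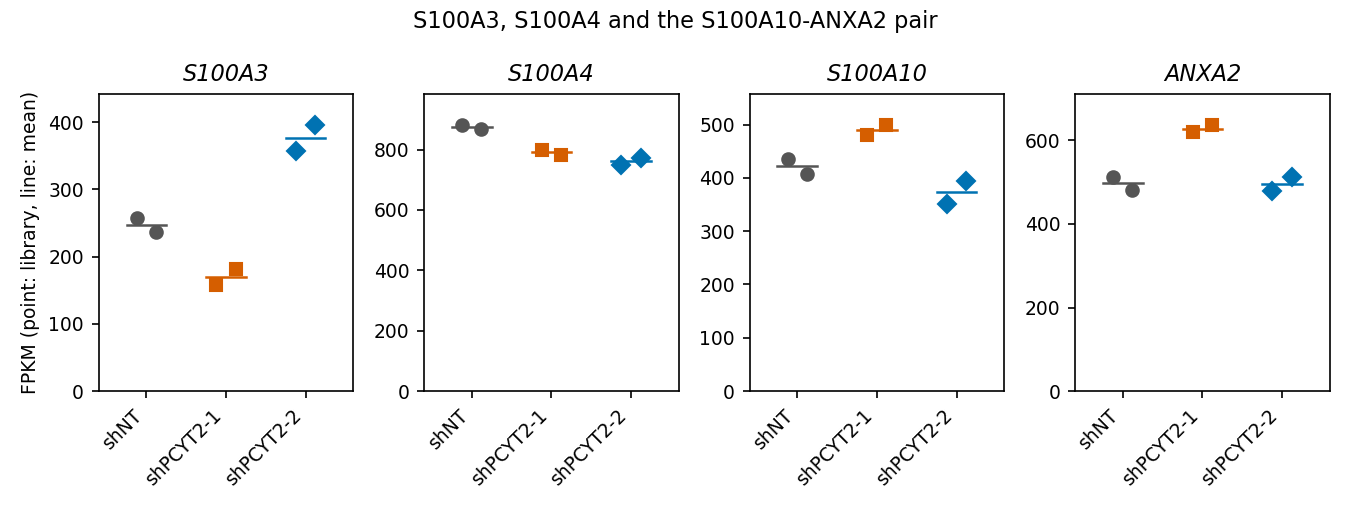
FPKM of S100A3, S100A4, S100A10 and its partner ANXA2, with 1 point per library and a line at the mean of each group (shNT, shPCYT2-1 and shPCYT2-2, 2 libraries each, axes from 0). S100A3 is highest with shPCYT2-2 (mean 376.4 FPKM), whereas S100A10 (489.7 FPKM) and ANXA2 are highest with shPCYT2-1.

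EZR, which encodes the S100P partner ezrin that links actin to the membrane, was at 108.4 and 108.1 FPKM with shNT, at 84.5 and 90.3 FPKM with shPCYT2-1, and at 106.2 and 118.0 FPKM with shPCYT2-2. It fell by 0.31 with shPCYT2-1 (SE 0.068, limma adjusted p = 0.0129), and as for S100P the shPCYT2-1 libraries were the lowest. The EZR call was lost with no filter on low values and without shPCYT2-1 replicate 1 (limma adjusted p up to 0.108). MYH9, the myosin heavy chain bound by S100A4, was at 69.5 and 79.2 FPKM with shNT, at 68.9 and 69.8 FPKM with shPCYT2-1, and at 58.2 and 56.3 FPKM with shPCYT2-2, and fell by 0.37 with shPCYT2-2 (SE 0.073, limma adjusted p = 0.0162). NPTN, a receptor for extracellular S100 proteins, rose by 0.23 (shPCYT2-1, limma adjusted p = 0.0448) or 0.32 (shPCYT2-2, limma adjusted p = 0.0254). The scaffold IQGAP1 rose by 0.36 with shPCYT2-2 (limma adjusted p = 0.0262). The shPCYT2-2 calls of MYH9 and IQGAP1 were each made under 9 of 13 alternatives and that of NPTN under 8, all lost without shNT replicate 2 or either shPCYT2-2 library. The NPTN call with shPCYT2-1 was made under 3 of 13, being lost without any single library. The S100A6 partner CACYBP had log2 fold changes of 0.25 (shPCYT2-1, limma adjusted p = 0.0544) and -0.04 (shPCYT2-2, limma adjusted p = 0.751), and ANXA1 and ANXA11 were called in no comparison. AGER, which encodes RAGE, lay between 0 and 0.0535 FPKM and was not tested.

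Of 13 annexins, calcium-dependent membrane binders and frequent S100 ligands, 10 were tested. ANXA2 and ANXA7 (0.27, limma adjusted p = 0.0181) rose with shPCYT2-1, and 0 fell. ANXA13 (0.51, limma adjusted p = 0.0231), ANXA5 (0.31, limma adjusted p = 0.0153) and ANXA6 (0.27, limma adjusted p = 0.03) rose with shPCYT2-2, and 0 fell. The level of ANXA13 was low, at a mean of 0.739 FPKM with shNT and 1.47 FPKM with shPCYT2-2. With a pseudocount of 0.1 its log2 fold change was 0.91. ANXA5 was at 60.2 and 57.7 FPKM with shNT, at 61.4 and 62.7 FPKM with shPCYT2-1, and at 74.7 and 72.1 FPKM with shPCYT2-2. The ANXA7 and ANXA5 calls were each made under 8 of 13 alternatives, that of ANXA6 under 6 of 13 and that of ANXA13 under 7 of 12, and each was lost without shNT replicate 2 or either library of its hairpin. The median log2 fold change of the tested annexins was 0.05 with shPCYT2-1 and 0.07 with shPCYT2-2, near that of all tested genes (0.07 and 0.04), of which 26.7% were called with shPCYT2-1 and 12.4% with shPCYT2-2.

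The neighborhood of the chromosome 1 genes was read from the S100 span (GRCh38 chr1:151982915-153632039) and 500000 bases on each side, where 26 other genes were tested. With shPCYT2-1, 4 rose and 1 fell, and with shPCYT2-2, 0 rose and 1 fell, where 26.7% and 12.4% of all tested genes were called. Between the hairpins 2 were higher and 7 lower, where 27.1% of all tested genes were called. SPRR2D, a small proline-rich protein of the cornified envelope, was at 1.68 and 1.91 FPKM with shNT, at 8.04 and 9.89 FPKM with shPCYT2-1, and at 1.54 and 2.06 FPKM with shPCYT2-2. It rose by 1.83 with shPCYT2-1 (SE 0.132, limma adjusted p = 0.000215), more than any S100 member. Sequence that SPRR2D may share with other SPRR2 genes was not measured, so its value is uncertain. The zinc transporter SLC39A1 was at 48.0 and 50 FPKM with shNT, at 62.5 and 61.2 FPKM with shPCYT2-1, and at 36.8 and 31.0 FPKM with shPCYT2-2. It rose by 0.33 with shPCYT2-1 (limma adjusted p = 0.0202) and fell by 0.52 with shPCYT2-2 (limma adjusted p = 0.00819), opposite in sign to S100A3 in each comparison. PRR9 (0.53, limma adjusted p = 0.0184) and THEM4 (0.44, limma adjusted p = 0.0267) also rose with shPCYT2-1, and CGN, which encodes the tight junction protein cingulin and was named after its values were seen, fell by 0.44 (limma adjusted p = 0.011). The CGN call was lost without shNT replicate 2 and without shPCYT2-1 replicate 1, that of PRR9 without replicate 2 of either group, and those of THEM4 and SLC39A1 with shPCYT2-1 without any of these 4 libraries. The SLC39A1 fall was called under 12 of 13 alternatives and the SPRR2D rise under 13. The median difference between the hairpins was -0.11 over these 26 genes.

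**Figure D4:**
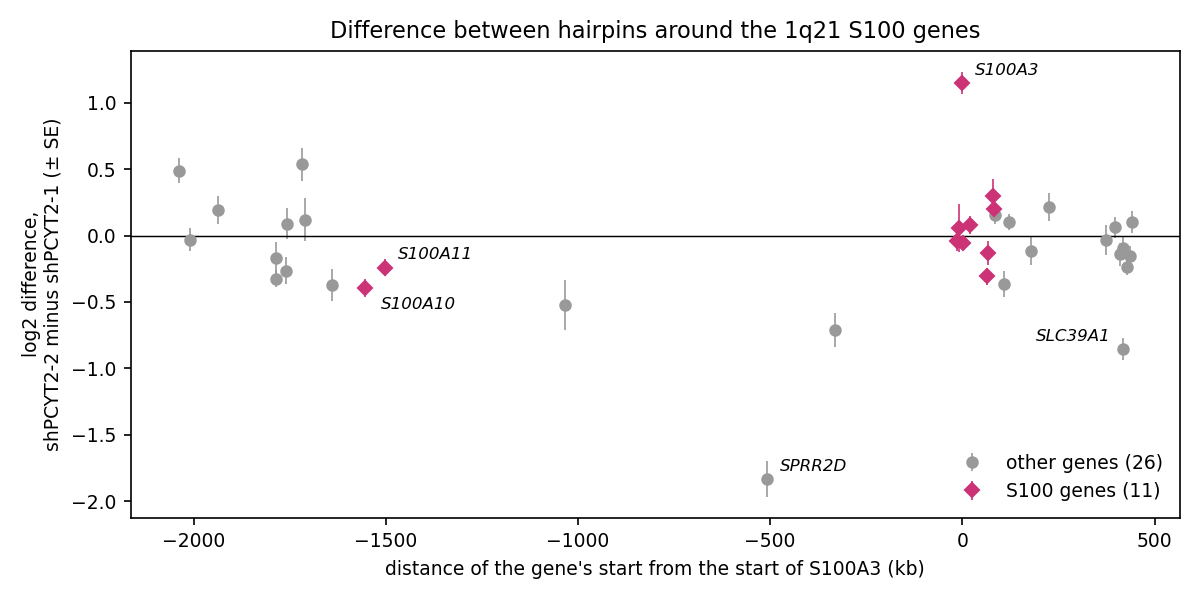
Log2 difference between the hairpins (shPCYT2-2 minus shPCYT2-1, bars for the standard error) against the distance of each gene's start from that of S100A3 in kilobases, for 11 tested S100 genes of chromosome 1 (diamonds) and 26 other genes (circles). S100A3 lies highest at 1.15, SPRR2D lowest at -1.83, and the nearest S100 genes lie close to 0.

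The genes most like 3 of the members in pattern were found by Pearson's r of log2(FPKM + 1) over the 6 libraries, which share groups and scaling, so r is given as a description. S100A4 was most like ZAP70 (r = 0.993), MIR6784 (r = 0.985) and DNER (r = 0.983). S100A10 was most like KXD1 (r = 0.995), SNHG1 (r = 0.990) and TRIB3 (r = 0.989), and S100P was most like RASSF3 (r = 0.989), SMTNL2 (r = 0.989) and RPL22L1 (r = 0.987). TRIB3 was at 206.8 and 199.1 FPKM with shNT, at 247.8 and 264.5 FPKM with shPCYT2-1, and at 148.7 and 171.2 FPKM with shPCYT2-2, in the same order of groups as S100A10. Within the family, S100A11 and S100A16 were most alike (r = 0.969), followed by S100A4 and S100A6 (r = 0.933), and S100A3 and S100A10 ran opposite (r = -0.877).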

How the data were processed

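RNA-Seq values of SW480 cells with shNT, shPCYT2-1 or shPCYT2-2 (2 libraries each) were used. The authors deposited 1 value per gene and library, read as FPKM from the values themselves (TPM over part of the genes is possible), which sum to between 396466.6 and 402611.9 per library. The aligner and annotation are not given in the sources used here. The submitters' processing notes name GRCh38, GRCm38 and mm10, and the labels name more than 1 library kit. They do not say which libraries each kit was used for, so the part of the kit in the group differences was not tested. Whether the libraries keep strand is not stated, so genes that overlap an antisense gene (S100A6, S100A11 and S100A13) are uncertain.

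The tables hold 21539 identifiers. Repeated rows of 115 identifiers were added up, and 1045 sets of identifiers that carry the same values were each kept once, giving 19655 genes. A gene that a library does not list was taken as 0. A gene whose identifier was not the one kept of its set has no entry under its own name. Names and positions came from GENCODE release 29 and promoters from RefSeq. Genes with a mean of at least 0.5 FPKM were tested with limma 3.58.1 (R 4.3.3) with a pseudocount of 1 on the log2 scale, a trended prior variance and p-values adjusted by Benjamini and Hochberg's method over 12756 genes. Hairpins and their difference came from a fit with 3 groups, and the pooled comparison from a fit with 2. Tests of the fits on simulated data are not reported here, and no result rests on them. The values gave no single common step that would return reads, so depth is unknown and no counting interval is given.

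The members and lists were chosen with earlier results of these data known. Named genes are the 10 members, PCYT2, up to 3 called genes per list and hairpin with the largest change, some of the binding partners of members, and the 3 genes most like S100A4, S100A10 and S100P. Some list genes are counted but not reported by name here. Alternatives covered the pseudocount, the expression limit, scaling, the replicate number as a block, the variance trend, leaving out each library, the grouping in the fit and, chosen after seeing the data, GC content and length. Figures were drawn with matplotlib 3.10.9.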

Additional observations from a re-analysis of the deposited data

Results flagged for a closer look

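The response to the hairpins differed by a test of the difference itself (shPCYT2-2 minus shPCYT2-1 on the log2 scale, limma, adjusted p under 0.05 over all tested genes) for 6 of the 10 members and 17 of 23 other genes named from the lists, where 27.1% of all tested genes passed. Most of the other genes were named because a hairpin called them against shNT, so their share is not comparable with that of all genes. Among the members the difference was 1.15 for S100A3, 0.40 for S100P and 0.20 for S100A13, and -0.39 for S100A10, -0.31 for S100A16 and -0.24 for S100A11. Among binding partners and annexins it was 0.76 for ANXA13, 0.46 for ANXA6, 0.35 for EZR, 0.26 for AHNAK and 0.24 for ANXA5, and -0.76 for TRPV6, -0.34 for ANXA2, -0.29 for CACYBP and -0.27 for MYH9. Among EF-hand calcium sensors it was 0.86 for RCN1, 0.50 for EFHD2 and 0.38 for CETN3. In the neighborhood of the S100 genes it was 0.49 for CGN, and -1.83 for SPRR2D, -0.85 for SLC39A1, -0.71 for PRR9 and -0.37 for THEM4. With a pseudocount of 0.1 the difference was 1.49 for ANXA13, -1.33 for TRPV6 and -1.28 for PRR9, all at low levels. Each group is 1 hairpin with 2 libraries, so the hairpin and the cell population that carries it cannot be told apart. Among the 17 other genes, 9 differences were called under every alternative that gave a value. The fewest calls were those of CETN3 and THEM4 (each 5 of 13, limma adjusted p up to 0.308 and 0.215), and MYH9 was called under 7, ANXA5 and CACYBP under 8, AHNAK under 9, EZR under 11 and CGN under 12 of 13. Groups of 2 libraries are too small for a test of single libraries that stand apart.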

How the results depend on the processing

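Over the alternatives, the values of single members kept their direction and their side of the threshold in 320 cases, lost the call in 62, gained it in 1 and changed sign in 7. For the other named genes, PCYT2 included, the same counts were 651, 118, 16 and 7. Depth in reads is unknown, and 2 libraries per group limit every call. Where 1 library is left out, the spread comes from the groups that still have 2.

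With no filter on low values, shPCYT2-1 called 1844 of all genes and 3 S100 members, shPCYT2-2 called 124 of all genes and 0 S100 members, and the pooled comparison called 7 of all genes. With median-ratio scaling, S100 members called numbered 5 with shPCYT2-1 and 3 between the hairpins. With no variance trend, shPCYT2-2 called 1027 of all genes and 1 of the S100 members, and with the trend of GC content and length removed, an alternative chosen after seeing the data, it called 1797 of all genes and 1 of the S100 members. In the pooled comparison, which called 1 of all genes and 0 S100 members, the mean of the hairpins from the fit with 3 groups called 2142 of all genes and 5 S100 members, and a pseudocount of 0.1, a mean of at least 1 and the replicate number as a block called 0 of all genes.

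With each library left out in turn, shPCYT2-1 called between 1147 and 3256 of all genes and between 3 and 8 S100 members, shPCYT2-2 between 125 and 1893 of all genes and between 1 and 3 S100 members, the hairpins differed in between 1662 and 3785 of all genes and between 3 and 6 S100 members, and the pooled comparison called between 0 and 1 of all genes and 0 S100 members. The lowest counts of all genes came without replicate 1 of shPCYT2-1 (1147) and of shPCYT2-2 (125). The cause of these shifts was not tested.

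Values near 0 changed sign. With median-ratio scaling they were -0.0512 for ANXA11 with shPCYT2-1, and -0.0089 for S100P and -0.0076 for EZR with shPCYT2-2. With GC content and length removed, S100A16 was 0.054 with shPCYT2-2. When single libraries were left out, the value with shPCYT2-1 ran from -0.0016 to 0.0625 for ANXA11. The value with shPCYT2-2 ran from -0.086 to 0.0778 for S100A16, from -0.0633 to 0.1565 for S100P, from -0.0057 to 0.1736 for S100A11, from -0.0519 to 0.0452 for ANXA2, from -0.0272 to 0.123 for EZR and from -0.1445 to 0.0561 for CACYBP, and the difference between the hairpins from -0.1492 to 0.0656 for S100A6.

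The labels do not say whether the replicate numbers pair libraries across the groups, and correlations across genes cannot settle it. The differences between replicates correlated at r = 0.0027 between shNT and shPCYT2-1, 0.062 between shNT and shPCYT2-2 and 0.19 between the hairpins, across genes. With the replicate block, limma called 3884 of all genes and 9 S100 members with shPCYT2-1, 2029 and 4 with shPCYT2-2, and 3869 and 6 between the hairpins.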

Other observations

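The EF-hand calcium sensors outside the S100 family were counted beside all tested genes. Of 26 such genes, all tested, 5 rose and 3 fell with shPCYT2-1 (26.7% of all tested genes were called), 4 rose and 1 fell with shPCYT2-2 (12.4%), and 8 were higher and 5 lower with shPCYT2-2 than with shPCYT2-1 (27.1%). RCN1 (reticulocalbin 1, an EF-hand protein of the endoplasmic reticulum) was at 84.9 and 87.2 FPKM with shNT, at 61.9 and 59.5 FPKM with shPCYT2-1, and at 118.9 and 104.2 FPKM with shPCYT2-2. It fell by 0.50 with shPCYT2-1 (limma adjusted p = 0.00262) and rose by 0.37 with shPCYT2-2 (limma adjusted p = 0.0162), with signs like those of S100A3. EFHD2 (swiprosin 1) fell by 0.50 with shPCYT2-1 (limma adjusted p = 0.00474), and STIM2, a calcium sensor of the endoplasmic reticulum, rose by 0.45 (limma adjusted p = 0.0268). The centrin CETN3 rose by 0.53 with shPCYT2-2 (limma adjusted p = 0.0268). The falls of RCN1 and EFHD2 were called under all 13 alternatives, whereas the rise of RCN1 was lost without shNT replicate 2 or shPCYT2-2 replicate 1. The STIM2 and CETN3 calls were lost without shNT replicate 2 or either library of the hairpin. The median of the list was 0.12 with shPCYT2-1 and 0.08 with shPCYT2-2.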
